A study of Mus musculus with 12 samples.

Results

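The genes described here encode proteins that bring secretory vesicles to the cell membrane, hold them there and fuse them with it. They are 10 genes: the granule adaptor Sytl4, the active-zone scaffolds Pclo and Rims2, the vesicle GTPases Rab3a and Rab27a, the vesicle membrane protein Sv2b, the SNARE proteins Snap25 and Stx1a, and the synaptotagmins Syt7 and Syt13. They were taken by name out of 19938 genes measured, with earlier results of these data known, and each was found by its symbol in the array's annotation. Where a gene has several single-gene probe sets, the one with the highest mean signal over the 12 arrays is selected by that mean; all 10 genes had 1 probe set, so no measured value decided between probe sets here.

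RNA came from MIN6, a mouse insulinoma line that secretes insulin in response to glucose and stands in for the pancreatic beta cell. One culture was medium containing serum at 20% oxygen, named Classic Conditions (CC) in the labels. The other was medium free of serum at 5% oxygen, named Defined Conditions (DC), so serum and oxygen changed together and their parts cannot be told apart. In both, cells received 2 µM siRNA directed at Hes3, a transcriptional repressor of the Hes family, or a scrambled control siRNA, with the same transfection reagent, and were assayed 12 to 24 hours later. Each siRNA had 2 arrays in CC and 4 in DC, all from a single experiment in 1 cell line, so each p-value measures the spread between these samples, which may be technical.

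In regulated exocytosis, a Rab GTPase on the vesicle binds adaptors that tether the vesicle near the membrane. Syntaxin-1A and SNAP-25 on the membrane then zip together with a vesicle SNARE, and a synaptotagmin couples fusion to calcium. Beta cells share most of this machinery with neurons and use it to release insulin granules. Sytl4 encodes granuphilin, which binds Rab27a and syntaxin-1A on insulin granules and is known to hold docked granules back from fusion.

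Signals are log2 values as deposited, between 3.94 and 14.4 over all probe sets, and a probe set was never set against another. Array medians lay between 7.78 and 7.88 in CC, between 7.84 and 7.91 in the DC scrambled arrays and between 7.91 and 7.96 in the DC arrays labelled Hes3 siRNA. The signal of the targeted gene itself was not lower under its siRNA: the Hes3 signal was 7.22 and 7.23 in the labelled CC arrays against 7.23 and 6.82 in the scrambled ones. In DC it was 7.37, 7.36, 7.38 and 7.25 (arrays 1, 2, 5 and 7) against 7.10, 7.24, 7.19 and 7.22. All of these Hes3 signals lay below the array medians, and no detection calls were made. Whether Hes3 RNA fell under the siRNA therefore cannot be read from so low a signal. For this reason groups are called by their siRNA label. The mean log2 signal of 11 beta cell markers was 11.18 to 11.25 on the CC arrays, 11.30 to 11.36 on the DC scrambled arrays and 11.16 to 11.25 on the DC arrays labelled Hes3 siRNA. Between the cultures 2 of the 11 rose and 0 fell with the scrambled siRNA, beside 3.09% and 5.45% of all genes. With the Hes3 siRNA label 2 rose and 2 fell, beside 21.2% and 18.8%. Between the labels in DC 2 rose and 4 fell, beside 28.9% and 18.3%. Differences are log2 differences from limma with their standard error (SE), called where the p-value adjusted by Benjamini-Hochberg over all 19938 genes was under 0.05.

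The largest differences within the group followed the culture. Sytl4, Pclo and Sv2b were higher in DC than in CC with either siRNA, while Snap25, Stx1a, Rab27a and Syt7 did not pass the test between the cultures. In the scrambled arrays 3 of the 10 genes rose and 0 fell, where 3.09% of all genes rose and 5.45% fell. In the arrays labelled Hes3 siRNA 4 rose and 2 fell, where 21.2% of all genes rose and 18.8% fell. The median log2 difference of the 10 genes was 0.04 in the scrambled arrays and 0.13 in the labelled ones, beside 0.02 and 0.09 over all genes. The differences in these comparisons share no array, but their SEs and p-values rest on a spread estimated over all arrays together. The calls of the comparisons are therefore not independent of each other.

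**Figure D1:**
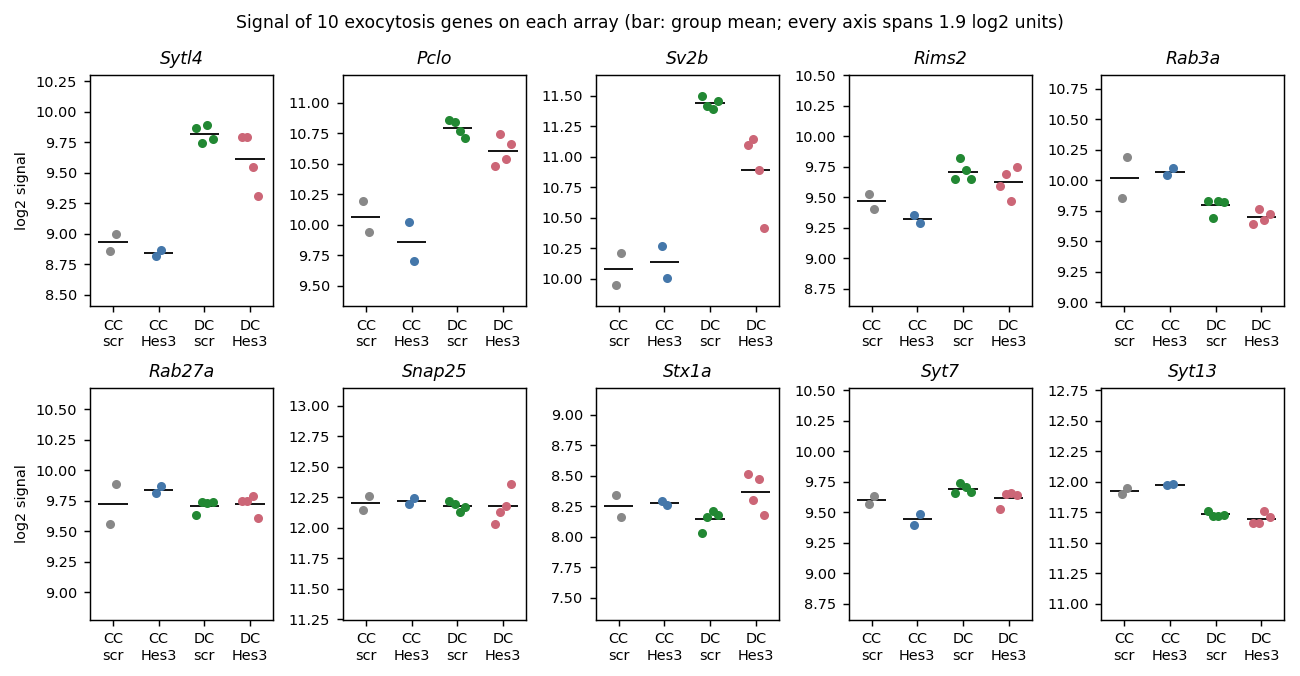
Log2 signal (vertical axes, each spanning the same 1.9 log2 units) of the 10 genes on each of 12 arrays, by culture and siRNA label; points are arrays and bars are group means. Sytl4, Pclo and Sv2b stand higher in both DC groups than in both CC groups, and Sv2b spreads from 10.42 to 11.15 in the DC arrays labelled Hes3 siRNA.

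Because these 3 genes moved together with culture, the bases before their start sites are shown, from RefSeq on GRCm38.p6, 5′ to 3′ on the gene's strand and ending at the base before the start. Capitals mark ACGTG and GCGTG, core letters of the hypoxia response element, and CACNAG, the N box bound by Hes repressors, on either strand; CTGGTG is CACNAG read on the opposite strand, and ACGTG overlaps the E box CACGTG. The Sytl4 window (chrX:133981813-133982062, minus strand) held none of these letters. The Pclo window (chr5:14514668-14514917, plus strand) held GCGTG on each strand and 1 CACNAG. Sv2b has 4 start sites in this table, of which the most upstream (chr7:75309263-75309512, minus strand) held none, the next held 1 ACGTG and 1 GCGTG, the one at chr7:75302610-75302859 held the palindrome CACGTG and the last held none. The Stx1a window (chr5:135023232-135023481, plus strand), shown because that gene differed between the siRNA labels, held 2 GCGTG and 1 CACNAG.
Sytl4: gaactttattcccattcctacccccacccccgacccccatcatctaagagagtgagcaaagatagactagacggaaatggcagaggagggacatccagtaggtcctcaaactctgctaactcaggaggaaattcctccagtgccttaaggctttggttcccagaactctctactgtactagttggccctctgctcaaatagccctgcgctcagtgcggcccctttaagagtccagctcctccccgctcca
Pclo: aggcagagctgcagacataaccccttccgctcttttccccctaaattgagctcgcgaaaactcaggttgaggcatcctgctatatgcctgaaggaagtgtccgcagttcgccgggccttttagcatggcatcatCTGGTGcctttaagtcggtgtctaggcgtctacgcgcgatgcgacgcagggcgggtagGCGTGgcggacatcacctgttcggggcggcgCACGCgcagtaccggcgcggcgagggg
Sv2b, most upstream start: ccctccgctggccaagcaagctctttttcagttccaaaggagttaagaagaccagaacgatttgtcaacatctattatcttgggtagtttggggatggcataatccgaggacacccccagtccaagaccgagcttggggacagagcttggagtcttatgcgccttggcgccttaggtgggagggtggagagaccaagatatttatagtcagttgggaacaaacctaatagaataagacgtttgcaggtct
Sv2b, start with CACGTG: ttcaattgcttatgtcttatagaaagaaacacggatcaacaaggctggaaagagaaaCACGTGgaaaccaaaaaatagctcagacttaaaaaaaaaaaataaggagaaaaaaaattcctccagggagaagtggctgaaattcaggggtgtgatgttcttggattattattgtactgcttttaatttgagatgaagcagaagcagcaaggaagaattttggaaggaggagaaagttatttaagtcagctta
Stx1a: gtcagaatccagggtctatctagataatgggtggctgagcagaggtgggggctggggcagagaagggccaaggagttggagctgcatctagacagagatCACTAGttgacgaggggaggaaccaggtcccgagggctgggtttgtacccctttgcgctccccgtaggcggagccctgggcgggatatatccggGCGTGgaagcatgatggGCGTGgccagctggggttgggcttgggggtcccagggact
These letters are common: of 32851 windows of 250 bases in the table, 16.6% held ACGTG, 28.2% GCGTG and 36.7% CACNAG. The table matched 6 of the 10 genes in 11 windows, of which 3 held ACGTG, 5 GCGTG and 3 CACNAG. A match describes the letters and is not a bound site.

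Sv2b encodes a glycoprotein of the vesicle membrane, a member of the SV2 family of synaptic vesicle transporter-like proteins. Its signal was 9.95 and 10.21 in the CC scrambled arrays and 11.50, 11.42, 11.39 and 11.46 in the DC scrambled arrays. Every DC array lay above every CC array. This gave a log2 difference of 1.36 ± 0.152 (SE; limma adjusted p = 4.31e-05), or 2.57-fold, the 8th largest increase of 19938 genes. With the Hes3 siRNA label the CC arrays read 10.27 and 10.01 and the DC arrays 11.10, 11.15, 10.89 and 10.42 (arrays 1, 2, 5 and 7). The DC arrays again lay above the CC arrays, array 7 by a small margin. Here the log2 difference was 0.75 ± 0.152 (SE; limma adjusted p = 0.00211), or 1.68-fold. Without CC array 2 of this label it was 0.62 and no longer passed (limma adjusted p = 0.0543, the highest of its 22 alternatives, the lowest being 1.57e-05).

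Sytl4 read 8.86 and 9.00 in the CC scrambled arrays and 9.87, 9.74, 9.89 and 9.78 in the DC scrambled arrays. The labelled arrays read 8.82 and 8.87 in CC and 9.79, 9.79, 9.55 and 9.31 in DC. No DC array reached down to a CC array with the same siRNA. Sytl4 was higher by a log2 difference of 0.89 ± 0.112 (SE; limma adjusted p = 0.000112; 1.85-fold) with the scrambled siRNA. It was 0.77 ± 0.112 (limma adjusted p = 0.00015; 1.70-fold) with the Hes3 siRNA label. Sytl4 ranked 31st and 33rd among the increases of all genes in these comparisons.

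Pclo encodes piccolo, a large scaffold of the presynaptic active zone that in beta cells binds a cAMP sensor and Rim2. It read 10.19 and 9.94 in the CC scrambled arrays and 10.86, 10.84, 10.77 and 10.71 in the DC scrambled arrays. The arrays labelled Hes3 siRNA read 10.02 and 9.70 in CC and 10.48, 10.74, 10.54 and 10.66 in DC. The cultures again did not overlap within a siRNA. The log2 difference was 0.73 ± 0.101 (SE; limma adjusted p = 0.000248; 1.66-fold) with the scrambled siRNA and 0.75 ± 0.101 (limma adjusted p = 8.56e-05; 1.68-fold) with the Hes3 siRNA label. For both Sytl4 and Pclo the call held in all 22 alternatives of each comparison.

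Rims2 encodes a Rab3-binding scaffold that helps prime vesicles. It read 9.53 and 9.40 in the CC scrambled arrays against 9.65, 9.82, 9.72 and 9.65 in DC. The labelled arrays read 9.35 and 9.29 in CC against 9.59, 9.69, 9.47 and 9.75 in DC. The direction was that of its partner Pclo, and smaller. The log2 difference was 0.25 ± 0.0857 (SE; limma adjusted p = 0.0899) with the scrambled siRNA, which did not pass, and 0.31 ± 0.0857 (limma adjusted p = 0.0132) with the Hes3 siRNA label, which did. The second call was lost in 4 of 22 alternatives, among them 0.20 with arrays centred on their median, and 0.34 and 0.28 without CC array 1 or 2 of that label (limma adjusted p from 0.00197 to 0.118 over the alternatives). In the scrambled arrays Rims2 passed in 2 of 22 alternatives.

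Rab3a and Syt13 pointed the other way. Rab3a, a vesicle GTPase that recruits Rim proteins, read 9.85 and 10.19 in the CC scrambled arrays and 9.83, 9.69, 9.83 and 9.82 in DC. In the labelled arrays it read 10.04 and 10.10 in CC and 9.64, 9.76, 9.67 and 9.72 in DC. The CC scrambled pair lay farther apart than the group means of that comparison. Its log2 difference of -0.23 ± 0.0866 (SE; limma adjusted p = 0.134) did not pass, and it was -0.40 without CC scrambled array 1 (where it passed) and -0.06 without array 2. With the Hes3 siRNA label Rab3a fell by 0.37 ± 0.0866 (limma adjusted p = 0.00478), a call lost without CC array 2 of that label (-0.35, limma adjusted p = 0.0656; lowest over the alternatives 0.000668).

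Syt13 encodes an atypical synaptotagmin. It read 11.90 and 11.95 in the CC scrambled arrays and 11.76, 11.72, 11.72 and 11.73 in DC. In the labelled arrays it read 11.97 and 11.98 in CC and 11.66, 11.66, 11.76 and 11.71 in DC. The replicates were close together, and every DC array lay below every CC array. For Syt13 the log2 difference was -0.19 ± 0.0641 (SE; limma adjusted p = 0.0808) with the scrambled siRNA, which did not pass. It was -0.28 ± 0.0641 (limma adjusted p = 0.00481) with the Hes3 siRNA label, which passed. That call was lost after quantile normalization (-0.09), after cyclic loess normalization (-0.07) and without CC array 2 of that label (-0.27; limma adjusted p from 0.000634 to 0.439 over the alternatives).

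The remaining genes stayed within narrow ranges. Snap25, a membrane SNARE, had the narrowest range of group means, 0.04, and its arrays lay between 12.03 and 12.36. Its log2 difference between the cultures was -0.02 (95% interval -0.20 to 0.16) with the scrambled siRNA and -0.04 (-0.22 to 0.14) with the Hes3 siRNA label. Rab27a, the GTPase to which Sytl4 binds, lay between 9.56 and 9.89 on all arrays. Its differences were -0.02 (95% interval -0.20 to 0.17) and -0.11 (-0.30 to 0.07). Both genes changed sign under quantile and cyclic loess normalization, at values of 0.17 or less. Stx1a, the membrane partner of Snap25, differed by -0.11 (95% interval -0.31 to 0.09) and 0.09 (-0.11 to 0.29). Syt7, a calcium sensor with high affinity, differed by 0.09 (-0.05 to 0.24) and 0.17 (0.03 to 0.32). For Syt7 the second value missed the threshold (limma adjusted p = 0.0557) and passed in 5 of 22 alternatives, at 0.17 to 0.28.

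**Figure D2:**
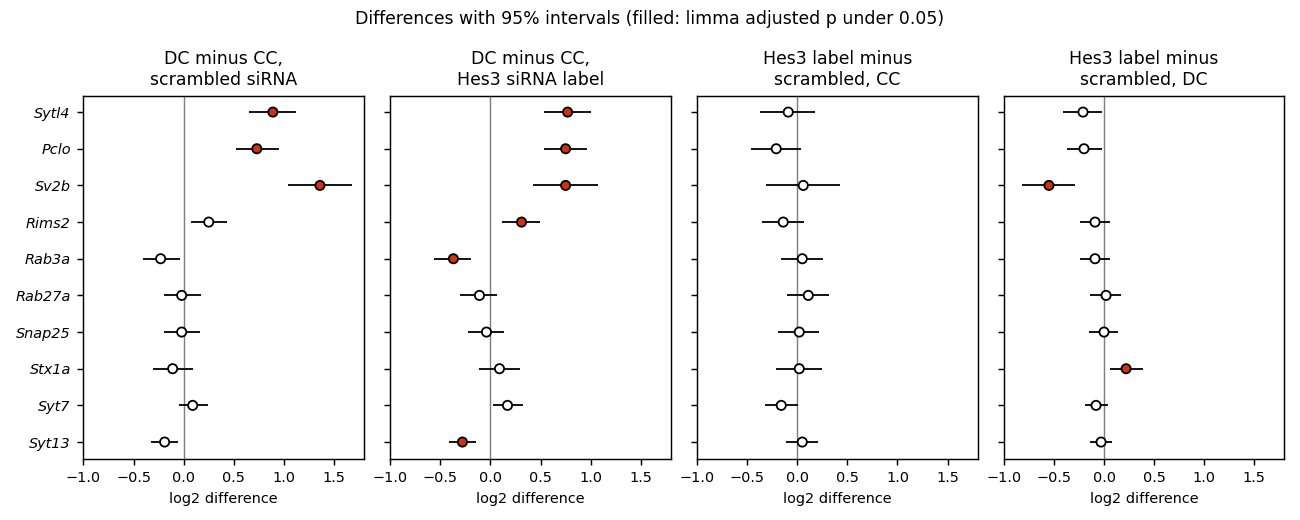
Log2 difference (horizontal axes) of each of the 10 genes in 4 comparisons; points are limma estimates, lines their 95% intervals, and filled points passed the test. Sytl4, Pclo and Sv2b are filled in both comparisons of DC with CC, and Sv2b and Stx1a in the comparison of siRNA labels in DC.

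Arrays that did not overlap between the cultures gave the same grouping. In the scrambled arrays 5 of the 10 genes were higher in DC without overlap (Sytl4, Pclo, Sv2b, Rims2 and Syt7) and 2 lower (Rab3a and Syt13), beside 13.8% and 14.1% of all genes. With the Hes3 siRNA label the same 5 were higher and Rab27a joined the other 2, beside 38.4% and 23.4%. In bulk RNA, fewer cells of a kind and less RNA per cell cannot be told apart. By the limma test, 3.09% of all genes rose and 5.45% fell in the scrambled arrays, and 21.2% and 18.8% in the labelled ones. Of the 12 neuronal markers, 2 rose in the scrambled DC arrays and 0 fell, and 3 rose and 2 fell in the labelled ones. The mean log2 signal of that list was 8.85 to 8.93 on the CC arrays and 8.93 to 9.03 on the DC arrays. Of 4 alpha cell markers, Gcg and Ttr fell in both comparisons. Irx1 and Irx2 did not pass with the scrambled siRNA (-0.02 and 0.01) and rose with the Hes3 siRNA label (0.30 and 0.28). The mean of the alpha cell list was 10.41 to 10.46 in CC and 9.92 to 10.19 in DC. The part of either list in the results was not tested.

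Close relatives of the 10 genes differed in direction. Sv2c, the close relative of Sv2b, fell by 0.47 ± 0.131 (SE; limma adjusted p = 0.0334) between the cultures with the scrambled siRNA and by 0.73 ± 0.131 (adjusted p = 0.000865) with the Hes3 siRNA label; the first of these calls was lost in 8 of 22 alternatives, 6 of them without 1 scrambled array, CC 1 or 2 or DC 1, 2, 3 or 4 (-0.49 to -0.46). Sv2a, named after its values were seen, differed by 0.10 and 0.09 and did not pass. Within this family one gene thus rose, one fell and one did not pass the test. Among the synaptotagmins, Syt5 fell by 0.61 ± 0.0858 (limma adjusted p = 0.00027) and by 1.05 ± 0.0858 (adjusted p = 1.43e-06), and Syt4 by 0.47 and by 0.74; without CC scrambled array 2 the first Syt4 value was -0.39 and did not pass. Rab3c and Rab3b rose in the scrambled arrays (0.41 and 0.38), with values of -0.03 and -0.14 in the labelled ones. The Rab3b call was lost in 6 of 22 alternatives, and without CC scrambled array 1 its value was 0.21. The Rab3c call was lost with the replicate block (0.39). Rab3d differed by -0.34 (limma adjusted p = 0.0505) and fell by 0.48 (adjusted p = 0.00254) in the labelled arrays. That Rab3d call was lost in 1 of 22 alternatives, without CC array 2 of that label (-0.41).

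Across 5 wider lists of the exocytosis pathway, 106 of 109 genes were measured. In the scrambled arrays 5 of the 106 rose and 7 fell between the cultures, where 3.09% and 5.45% of all genes did. In the labelled arrays 23 rose and 26 fell, where 21.2% and 18.8% of all genes did. Of 30 SNAREs, fusion and priming factors 1 rose and 0 fell in the scrambled arrays: Stxbp5l (0.52 ± 0.0874, SE), which encodes a tomosyn that binds SNAREs. With the Hes3 siRNA label 9 rose and 8 fell, among them the vesicle SNAREs Vamp7 (-1.31 ± 0.183) and Vamp3 (-0.66), Napb (-0.79), a helper of SNARE disassembly, and Snap23 (-0.63), a relative of Snap25. Vamp7 had a value of -0.28 in the scrambled arrays and did not pass there. Of 22 vesicle membrane proteins 1 rose and 4 fell in the scrambled arrays, including Svop (-0.44), the monoamine transporter Slc18a1 (-0.41) and Syngr2 (-0.37), and 3 rose and 10 fell in the labelled ones. Without CC scrambled array 2 the Slc18a1 value was -0.33 and did not pass (limma adjusted p = 0.15; lowest over its alternatives 0.00339). Of 30 Rab3 and Rab27 GTPases, effectors and active-zone genes 3 rose and 1 fell, then 6 and 3. Of the 9 exocyst subunits, which tether vesicles, 0 passed in the scrambled arrays (Exoc1 0.26, limma adjusted p = 0.0534) and 3 fell in the labelled ones. These were Exoc5, Exoc6 and Exoc3, whose calls were lost in 3, 9 and 8 of 22 alternatives. For Exoc6 and Exoc3 the losses included quantile and cyclic loess normalization.

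**Figure D3:**
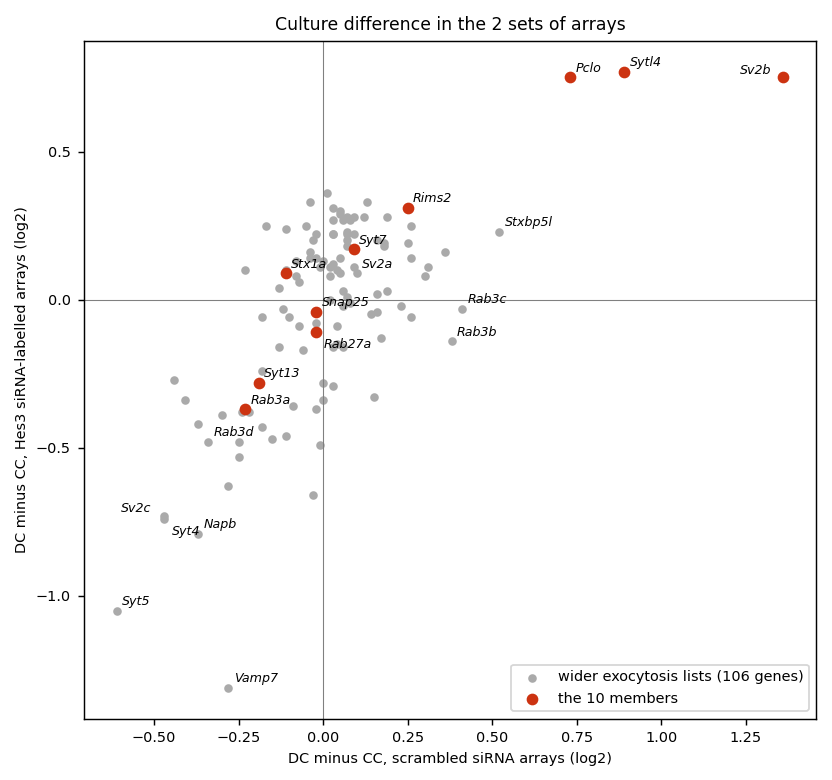
Log2 difference between DC and CC with the scrambled siRNA (horizontal axis) against that with the Hes3 siRNA label (vertical axis), for the 10 genes (red) and 106 genes of the wider lists (grey). Sytl4, Pclo and Sv2b lie apart at the upper right, and Syt5, Syt4, Sv2c and Vamp7 at the lower left.

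The comparison of siRNA labels asked what the Hes3 siRNA changed within a culture. In DC, Sv2b was lower and Stx1a higher in the arrays labelled Hes3 siRNA: 1 of the 10 genes rose and 1 fell, where 28.9% of all genes rose and 18.3% fell. The DC scrambled arrays enter this comparison and the culture comparison above. The median log2 difference of the 10 genes was -0.08, beside 0.06 over all genes.

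For Sv2b, the 4 labelled DC arrays given above (10.42 to 11.15) lay below the 4 scrambled ones (11.39 to 11.50). The labelled arrays also spread more widely, with an SD of 0.33 against 0.05 (n = 4 each). The log2 difference was -0.55 ± 0.124 (SE; limma adjusted p = 0.0054), a signal 1.47-fold lower. Array 7 was the lowest. Over 22 alternatives the value lay between -0.66 and -0.34 and passed in 21 (limma adjusted p from 0.00193 to 0.0946). Sv2b and Syt7 were the genes whose 4 labelled arrays all lay below the 4 scrambled arrays, and 0 of the 10 lay above, beside 17.0% and 23.9% of all genes; for Syt7 the gap is smaller than the last printed digit and its difference of -0.08 did not pass.

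Stx1a read 8.51, 8.30, 8.47 and 8.18 in the labelled DC arrays (1, 2, 5 and 7) and 8.03, 8.16, 8.21 and 8.18 in the scrambled ones. Arrays 1 and 5 were the highest, and array 7 lay among the scrambled arrays. The log2 difference was 0.22 ± 0.0762 (SE; limma adjusted p = 0.0271; 1.17-fold). Without labelled arrays 1 and 5 together it was 0.10 (limma adjusted p = 0.373). The call was lost in 8 of 22 alternatives, including without labelled array 1 (0.18) or 5 (0.19), without scrambled array 1 (0.19), after quantile (0.21) and cyclic loess normalization (0.15) and with arrays centred on their median (0.15; limma adjusted p from 0.00661 to 0.373). In this comparison many markers of other cells were also higher, where 28.9% of all genes rose and 18.3% fell. Of these markers 7 of 9 fibroblast, 5 of 6 acinar, 3 of 5 duct and 4 of 8 macrophage and endothelial ones rose and 0 fell. Of 12 neuronal markers 4 rose and 4 fell, and of 11 beta cell markers 2 rose and 4 fell. Among all genes called here 61.3% were higher, and 38.1% when dim genes were left out. The mean log2 signal of the fibroblast list was 7.70 to 7.95 in the labelled DC arrays and 7.50 to 7.59 in the scrambled ones. In the labelled DC arrays the acinar list had means of 7.39 to 7.59 and the duct list 7.30 to 7.42. The macrophage and endothelial list had 6.99 to 7.12. These 3 lists lay below the medians of those arrays, 7.91 to 7.96, and no detection calls were made. Signals also spanned less in the labelled DC arrays (SD over probe sets 1.764 to 1.804) than in the scrambled ones (1.821 to 1.847). The part of these markers in the Stx1a value was not tested.

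Sytl4 and Pclo did not pass here. Sytl4 had a log2 difference of -0.21 ± 0.0912 (SE; limma adjusted p = 0.0656) and Pclo of -0.20 ± 0.0826 (adjusted p = 0.0601). Labelled arrays 1 and 2 of Sytl4, at 9.79 each, overlapped the scrambled range of 9.74 to 9.89, and arrays 5 and 7 lay below it. Sytl4 passed in 4 and Pclo in 7 of 22 alternatives, with adjusted p from 0.0288 to 0.92 and from 0.02 to 0.676. The other 6 genes had differences between -0.09 and 0.02. Snap25 was again flat (95% interval -0.15 to 0.14).

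**Figure D4:**
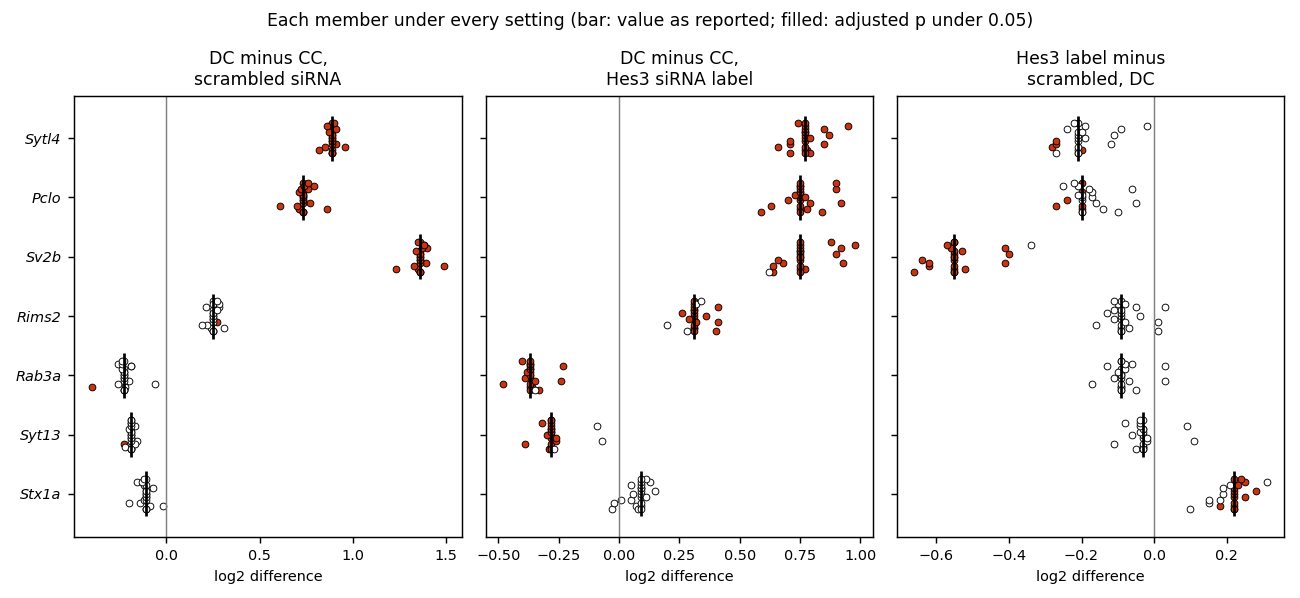
Log2 difference (horizontal axes) of 7 of the genes in 3 comparisons under every alternative setting; black bars are the values as reported and filled points passed the test. Sytl4 and Pclo stay filled between the cultures throughout, and the Stx1a points in the right panel fall on both sides of the threshold.

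Of the wider lists in the same comparison, 24 of 106 genes rose and 31 fell, where 28.9% and 18.3% of all genes did. Of the 9 exocyst subunits 8 were lower and 0 higher, against the same background: Exoc5 (-0.51), Exoc6 (-0.46), Exoc6b (-0.38) and Exoc3 (-0.33) had the largest differences, and the list's median was -0.26. Of the 30 SNAREs, fusion and priming factors 5 rose and 9 fell. The dense-core vesicle priming factor Cadps was lower (-0.44, limma adjusted p = 0.00318) and the calcium sensor Doc2a higher (0.35). Vamp7 was lower by 0.82 on the log2 scale and Rab3b by 0.50. The GTPase-activating subunit Rab3gap1 was also lower (-0.36), and the scaffolds Rims4 (0.33) and Rims1 (0.29) were higher. Among synaptotagmins 6 of 15 rose and 3 fell, with Syt15 at 0.40, Syt8 at 0.32, Syt5 at -0.38 and Syt1, a main calcium sensor of fast release, at -0.30. Without labelled arrays 1 and 5 together, Cadps and Rab3b still passed, and the other genes named in this paragraph did not (limma adjusted p from 0.0582 for Rims1 to 0.108 for Exoc5 and Syt8), each in the same direction as before. Their differences were then -0.28 for Exoc5, -0.32 for Exoc6, -0.25 for Exoc6b, -0.28 for Exoc3, -0.64 for Vamp7, 0.33 for Doc2a, -0.23 for Rab3gap1, 0.26 for Rims4 and 0.27 for Rims1. For the synaptotagmins they were 0.30 for Syt15, 0.23 for Syt8, -0.32 for Syt5 and -0.34 for Syt1. Cadps was at -0.28 and Rab3b at -0.54. Doc2a (0.18) and Rims1 (0.12) also lost the call after cyclic loess normalization, and both drop out when dim genes are left out. With the replicate block Doc2a, Rims1, Rims4, Rab3gap1, Syt15, Syt8, Syt1, Exoc6 and Exoc3 did not pass.

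In CC, 0 of the 10 genes and 0% of all genes passed limma between the siRNA labels, and 0 of the 10 had an unadjusted p under 0.05, as against 415 of 19938. Differences ran from -0.21 ± 0.117 (SE) for Pclo to 0.11 ± 0.101 for Rab27a. With 2 arrays on each side the intervals were wide: for Sv2b the difference of 0.06 had a 95% interval from -0.31 to 0.43. The change of the siRNA difference between DC and CC was tested directly. Again 0 of the 10 and 0% of all genes passed (3471 of 19938 and 1 of the 10 had an unadjusted p under 0.05). That gene was Sv2b, whose siRNA difference was lower in DC than in CC by a log2 value of -0.61 ± 0.215 (SE; limma adjusted p = 0.213, and 0.0584 to 0.936 over its alternatives). The same value is the amount by which its rise between the cultures was smaller with the Hes3 siRNA label, so a difference between the 2 rises was not shown.

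Over the 12 arrays some of the genes fell into opposed sets, as a description in which groups and arrays are shared. Sytl4 and Sv2b had a Pearson correlation of 0.96, Pclo and Rims2 of 0.91 and Sytl4 and Pclo of 0.89. Rab3a and Syt13 had 0.88, and Syt13 had -0.90 with both Sytl4 and Pclo. Syt7 had 0.75 with Pclo, 0.76 with Rims2 and -0.62 with Syt13. Snap25 and Stx1a followed these sets less closely, with -0.39 and -0.1 to Sytl4 and 0.32 and -0.08 to Syt13. Rab27a had -0.22 to Sytl4 and 0.4 to Syt13, but -0.52 to Pclo, -0.58 to Rims2 and 0.53 to Rab3a. Of all genes, those most like Sv2b, the gene with the widest range of group means (1.36), were Olfml3 (0.990), Tnr (0.980) and Pcdh15 (0.977) over the 12 arrays. For Snap25, with the narrowest range, they were Lsmem1 (0.915), Ddx50 (0.868) and Ss18l2 (0.860).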

How the data were processed

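RNA of MIN6 cells was measured on 12 Affymetrix arrays from 250 ng of total RNA, per the labels' protocols. The deposited table gives 1 log2 value per probe set and array (35556 probe sets); log2 is read from the values, and the authors' summarization and normalization are not given in the sources used here. All value columns were used. The platform annotation gave 21789 probe sets 1 symbol, 1621 several and 12146 none; Entrez identifiers of 21698 matched the reference gene table. Genes with several probe sets (999) took the brightest, leaving 19938, with no filter on dim genes and no detection calls.

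Differences came from limma 3.58.1 in R 4.3.3: 1 mean per group over all 12 arrays, 8 residual and 7.62 prior degrees of freedom, 5 contrasts, two-sided p adjusted over all 19938 genes, threshold 0.05. The fit was tested on simulated data. The number of arrays limits the precision. Members, wider lists, marker lists and tests were chosen with earlier results of these data known. The text names all 10 members and the 3 genes correlating best with the members of widest and narrowest range. For the wider lists, up to 4 genes past the threshold with the largest difference were picked per list and comparison. Where none passed, the 2 with the smallest p were picked. The text names some of these picks and not all, and Sv2a was named outside this rule.

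Alternatives were quantile, cyclic loess and median scaling, leaving out genes under the 40th percentile, averaging instead of choosing where a gene had several probe sets, eBayes with trend, the compared arrays alone, array weights, replicate number as a block, DC arrays 1 and 5 labelled Hes3 siRNA left out, and each array left out in turn. Promoters are RefSeq windows on GRCm38.p6, cut to the 250 bases before the start.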

Additional observations from a re-analysis of the deposited data

Results flagged for a closer look

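Rab3a in DC scrambled array 2 (9.69), Rab27a in DC scrambled array 1 (9.63) and Syt7 in DC array 1 labelled Hes3 siRNA (9.53) each lay far below the other 3 arrays of their group, with a gap of 0.896, 0.878 and 0.909 of the group's range. Chance gives such a gap in about 1 of 20 groups, and 20 groups were looked at. All 3 gaps lie within spreads of 0.2 log2 units or less.

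For Rab3a every labelled array lay above the scrambled mean in CC and below it in DC. The difference of the siRNA differences was -0.15 (limma adjusted p = 0.502), which did not pass, and without CC scrambled array 1 it was 0.02.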

How the results depend on the processing

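Sytl4, Pclo and Sv2b kept direction and call between the cultures in all 22 alternatives with the scrambled siRNA (0.82 to 0.96, 0.61 to 0.86 and 1.23 to 1.49), and with the Hes3 siRNA label Sytl4 (0.66 to 0.95) and Pclo (0.59 to 0.92) did too. Counts of all genes past the threshold moved more. With the scrambled siRNA the culture count was 1702, and 1054 with array weights, 804 with the replicate block and 742 to 2364 leaving out 1 array. With the Hes3 siRNA label it was 7986, and 5025 after quantile, 5131 after cyclic loess, 4051 with the replicate block, 3631 without DC arrays 1 and 5 and 2357 to 9516 leaving out 1 array; 2 to 7 of the 10 genes passed, the fewest without CC array 2 of that label. Between the labels in DC it was 9408, and 5736 after quantile, 4297 after cyclic loess, 5436 without dim genes, 620 with the replicate block, 331 without arrays 1 and 5 and 5754 to 10476 leaving out 1 array. Of the 10 genes 1 passed there after quantile, after cyclic loess and without arrays 1 and 5, 0 with the replicate block, and 1 (without labelled array 5 or scrambled array 1) to 4 leaving out 1 array. The test of the change between cultures called 0 genes, and up to 2056 leaving out 1 array, the most without CC scrambled array 2.

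Centring moved the median of all genes with the Hes3 siRNA label from 0.09 to -0.02 between the cultures. The share of higher calls went from 53.0% to 17.3% (40.7% quantile, 36.5% cyclic loess, 36.4% without dim genes). After centring, 3 of the 10 genes were higher and 2 lower, beside 1034 and 4950 of all genes. After quantile or cyclic loess, 5 were higher and 1 lower. Of all genes, 2044 were higher and 2981 lower after quantile, and 1873 and 3258 after cyclic loess. Between labels in DC the share of higher calls went from 61.3% to 36.7% (59.0% quantile, 39.4% cyclic loess, 38.1% without dim genes). There 0 of the 10 were higher and 3 lower after centring, beside 2906 and 5022 of all genes.

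Signs turned for differences that were not called. Culture, scrambled: Rab27a 0.01 after quantile and after cyclic loess and -0.18 to 0.15 leaving out 1 array, Snap25 0.01, 0.004 and, with the block, 0.01, and -0.08 to 0.04. Culture, Hes3 label: Rab27a 0.03 and 0.01, Snap25 0.14 and 0.17, 0.03 without arrays 1 and 5 and -0.10 to 0.01 leaving out 1 array, Stx1a -0.02 after centring and -0.03 without arrays 1 and 5. Labels in DC, after quantile and cyclic loess: Rims2 0.03 and 0.01, Rab3a 0.03 each, Snap25 0.11 and 0.14, Syt7 0.04 and 0.03, Syt13 0.09 and 0.11. In the same comparison Rab27a was -0.06 after centring, and without arrays 1 and 5 Rims2 was 0.01, Rab27a -0.03 and Snap25 0.07 (0.02 with array weights); leaving out 1 array Rab27a ran from -0.01 to 0.05 and Snap25 from -0.06 to 0.05. Labels in CC, leaving out 1 array: Sv2b -0.07 to 0.19, Rab3a -0.12 to 0.22, Rab27a -0.05 to 0.27, Snap25 -0.04 to 0.08 (-0.02 quantile, -0.03 cyclic loess) and Stx1a -0.07 to 0.12. The change between cultures for Rab3a ran from -0.31 to 0.02. The causes were not tested.

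The labels do not say that equal replicate numbers pair arrays, and correlations of same-numbered arrays' deviations ran from -0.441 to 0.536, so the replicate block uses shared numbers alone; with it Sv2b between labels in DC was -0.34. Where a lone CC array was left, it was assumed to vary like the other groups.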
